A study of Mus musculus with 6 samples.

Results

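The 10 keratin genes *Krt5*, *Krt14*, *Krt15*, *Krt17*, *Krt6a*, *Krt7*, *Krt8*, *Krt18*, *Krt19* and *Krt10* were followed through RNA sequencing of 6 mouse breast tumors, as 10 of the 18460 genes listed in at least 1 tumor. They were chosen by name: 5 keratins of basal cells (*Krt5*, *Krt14*, *Krt15*, *Krt17* and *Krt6a*), 4 keratins of luminal cells (*Krt7*, *Krt8*, *Krt18* and *Krt19*) and *Krt10* of the suprabasal epidermis. All 10 were listed in all 6 tumors, and all 10 passed the filter on low counts, which left 13706 genes to test. The 3 test tumors (K14-TSLPtg;PyMTtg;Rag1KO+CD4+ T cells) and the 3 control tumors (PyMTtg;Rag1KO+CD4+ T cells) came from Balb/c mice, were collected at 18 to 20 weeks of age, and arose from the PyMT oncogene, which the MMTV promoter drives in mammary epithelium. Every mouse carried the Rag1 knockout, which removes its own T and B cells, and received CD4+ T cells at 4 weeks of age. The groups differed by a *Tslp* transgene under the keratin 14 promoter, which is active in basal keratinocytes, and each tumor was a separate mouse. *Tslp* itself stood near the floor of 3 counts that was taken as the lowest level the depth can show. Its counts were 12, 7 and 2 in test replicates 1, 2 and 3 against 2, 2 and 3 in control replicates 1, 2 and 3, so that the library labelled test replicate 3 did not differ from the controls in this gene.

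Keratins are the intermediate filament proteins of epithelial cells. A filament is built from pairs of a type I and a type II keratin, and some partners are usual: KRT8 (type II) with KRT18 (type I) in simple and luminal epithelium, and KRT5 (type II) with KRT14 (type I) in basal and myoepithelial cells. In the mammary gland the luminal cells that line the duct and make milk carry KRT8, KRT18, KRT19 and KRT7, whereas the outer basal layer carries KRT5, KRT14, KRT17 and contractile proteins. KRT6A is a keratin of hair follicles, injured skin and some mammary progenitors, KRT15 marks basal and follicle stem cells, and KRT10 replaces KRT14 as epidermal cells leave the basal layer. PyMT tumors are known as luminal tumors.

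On the GRCm38 assembly the type II genes *Krt7* (101412403 to 101427806), *Krt6a* (101689928 to 101694305), *Krt5* (101707069 to 101712905) and *Krt8* (101996711 to 102004342) lie on chromosome 15, where *Krt18* (102028216 to 102032026), the type I partner of *Krt8*, is the neighbor of *Krt8*. The other type I genes *Krt10* (99385254 to 99397449), *Krt15* (100131759 to 100135949), *Krt19* (100140810 to 100145926), *Krt14* (100203162 to 100207510) and *Krt17* (100256215 to 100261029) lie on chromosome 11. The 250 bases before the RefSeq start site are shown for *Krt8* and *Krt18*, whose levels followed each other, for the luminal *Krt7*, and for the basal *Krt5*, with the sequence CACCTG, or CAGGTG on the other strand, in capitals. This motif is the E-box that repressors of the Snail and Zeb families, which are known to silence epithelial genes, can bind.
Krt8, chr15:102004343-102004592, minus strand: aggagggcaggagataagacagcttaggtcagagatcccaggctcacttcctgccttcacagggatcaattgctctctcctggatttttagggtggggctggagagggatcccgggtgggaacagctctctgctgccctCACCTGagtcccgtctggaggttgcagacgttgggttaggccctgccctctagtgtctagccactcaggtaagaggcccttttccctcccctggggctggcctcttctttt
Krt18, chr15:102027966-102028215, plus strand: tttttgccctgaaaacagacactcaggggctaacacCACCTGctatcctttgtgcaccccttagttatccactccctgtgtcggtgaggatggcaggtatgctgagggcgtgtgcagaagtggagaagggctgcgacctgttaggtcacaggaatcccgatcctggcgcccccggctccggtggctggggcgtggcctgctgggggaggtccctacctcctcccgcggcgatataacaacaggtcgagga
Krt7, chr15:101412153-101412402, plus strand: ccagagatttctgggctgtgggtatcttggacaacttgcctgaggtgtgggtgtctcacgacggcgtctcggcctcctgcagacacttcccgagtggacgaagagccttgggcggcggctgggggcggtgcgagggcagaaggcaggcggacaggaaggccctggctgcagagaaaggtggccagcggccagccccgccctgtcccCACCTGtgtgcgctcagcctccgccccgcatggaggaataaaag
Krt5, chr15:101712906-101713155, minus strand: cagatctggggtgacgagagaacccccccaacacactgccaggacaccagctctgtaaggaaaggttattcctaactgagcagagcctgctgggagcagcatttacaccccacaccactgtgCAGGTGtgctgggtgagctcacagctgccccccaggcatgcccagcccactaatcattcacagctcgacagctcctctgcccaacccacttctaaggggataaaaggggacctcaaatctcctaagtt
Each of these windows held the motif 1 time. Of the windows not shown, that of *Krt10* also held it 1 time and that of *Krt14* did not hold it. Of 32851 RefSeq windows of the same length, 17.2% held it on either strand. The start sites of GENCODE lay 140, 36, 1 and 7 bases from those of RefSeq for *Krt8*, *Krt18*, *Krt7* and *Krt5*. For *Krt8* the GENCODE start lies upstream, so that its motif, at -111 from the RefSeq start, falls inside the GENCODE transcript. The *Krt14* window was not shown, because its start site (100206030) lies 1518 bases inside the protein-coding transcript of GENCODE and also inside the RefSeq gene. The lack of the motif there therefore does not describe the start of the *Krt14* gene. No window was given for *Krt15*, *Krt17*, *Krt6a* and *Krt19*. In the windows shown, TATAAA (12.4% of all windows) and TGANTCA (6.75%), searched on both strands, had no match. There AGATAA (9.99%) matched in *Krt8* 1 time, and GGGCGG (32.7%) matched in *Krt7* 4 times. A match of letters is a description and does not show a bound factor.

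The luminal keratins were the most abundant members by group mean, and the 4 of them had higher mean levels in test than in control tumors. In control replicate 3 the basal *Krt5* (198 FPKM) stood above *Krt19* (95.0 FPKM) and *Krt7* (28.5 FPKM). Levels are given as FPKM, the reads divided by gene length and by the depth of the library, so that genes of different length can be set side by side. *Krt8*, which with *Krt18* forms the filaments of simple epithelium, was at 649, 650.5 and 798 FPKM in test replicates 1, 2 and 3. In control replicates 1, 2 and 3 it was at 236, 464.5 and 214 FPKM. Every test tumor thus lay above every control tumor, with control replicate 2 the nearest. The group levels of *Krt8* were 699 ± 85.9 FPKM in test and 305 ± 138.5 FPKM in control tumors (SD, n = 3 each). On the log2 scale the fitted difference was 1.22 with a standard error (SE) of 0.37 and an adjusted p of 0.454, by the edgeR count test adjusted over all genes tested.

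*Krt18*, its partner, was the highest keratin in each of the 6 tumors. It was at 1058, 997 and 1206 FPKM in test replicates 1, 2 and 3 against 395, 913 and 335 FPKM in control replicates 1, 2 and 3, again without overlap. Control replicate 2 came close to test replicate 2, whereas the other control tumors were far below. The log2 fold change was 1.01 (SE 0.42, edgeR adjusted p = 0.569), with 1087 ± 107 FPKM in test and 548 ± 318 FPKM in control tumors (SD, n = 3 each).

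*Krt19*, the smallest keratin and a type I partner of KRT8 in ductal epithelium, showed the largest difference of the 10 members. It was at 417, 550.5 and 228 FPKM in test replicates 1, 2 and 3 and at 147, 97.9 and 95.0 FPKM in control replicates 1, 2 and 3. The groups did not overlap, and here control replicate 2, the control nearest to the test tumors in *Krt8* and *Krt18*, was not the nearest. The level was 398.5 ± 162 FPKM in test and 113 ± 29.4 FPKM in control tumors (SD, n = 3 each). The log2 fold change was 1.81 (SE 0.42, edgeR adjusted p = 0.394). DESeq2, an alternative count test, gave *Krt19* a log2 fold change of 1.81 and an adjusted p of 0.00384, and *Krt19* was the only member below 0.05 in DESeq2. DESeq2 called 0.678% of the 14451 genes to which it gave an adjusted p as higher in test tumors.

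*Krt7*, a type II keratin of ducts and glands, was at 112, 156 and 214 FPKM in test replicates 1, 2 and 3 and at 68.7, 161 and 28.5 FPKM in control replicates 1, 2 and 3. The groups overlapped, since control replicate 2 exceeded test replicates 1 and 2 in FPKM. Its log2 fold change was 0.93 (SE 0.58, edgeR adjusted p = 0.707), and it was 1.69 without control replicate 2 (edgeR adjusted p = 0.204), 0.50 without control replicate 3 and 0.68 without test replicate 3.

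**Figure D1:**
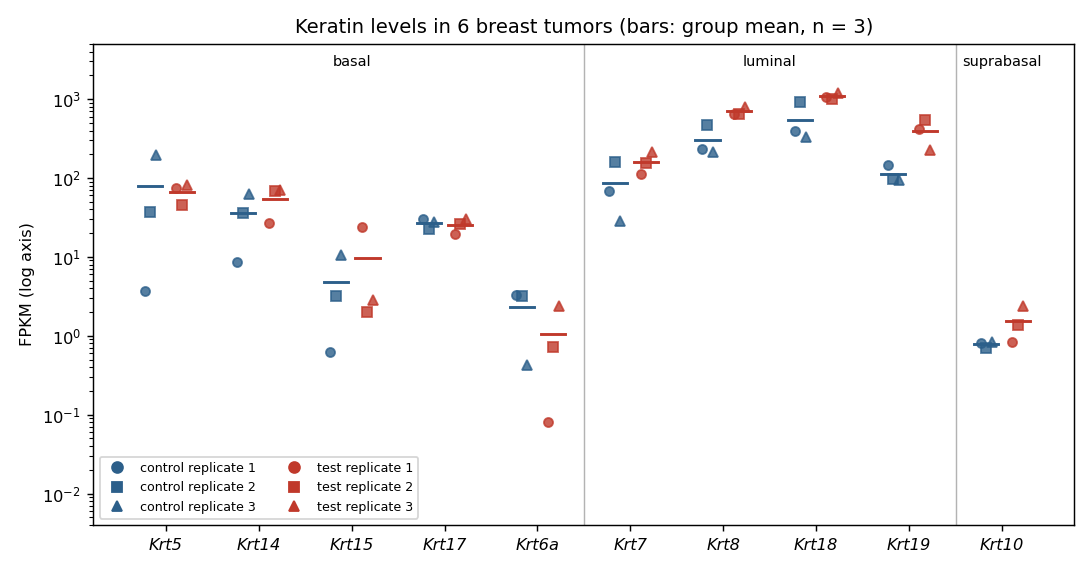
Level of the 10 keratins in each tumor, as FPKM on a log axis, with control tumors in blue, test tumors in red, a symbol for each replicate and a bar at the group mean (n = 3). *Krt8*, *Krt18* and *Krt19* do not overlap between the groups. Nor does *Krt10* in FPKM, with test replicate 1 at 0.84 and control replicate 3 at 0.83, although it overlaps in counts scaled to library size. *Krt5* spans from 3.66 to 198 FPKM within the control tumors.

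None of the 10 members passed an adjusted p of 0.05 in the edgeR test, where 0.0% of all tested genes did. The unadjusted p was under 0.05 for 3 members, which were luminal keratins with higher levels in test tumors, and for 8.41% of all tested genes (3.15% higher and 5.26% lower in test tumors). It was 0.00275 for *Krt19*, 0.0112 for *Krt8* and 0.0439 for *Krt18* in the edgeR model fitted across all genes. None of the 5 basal keratins and not *Krt10* had an unadjusted p under 0.05. For the same 3 luminal keratins every test tumor exceeded every control tumor in CPM (counts scaled to the TMM library size), as did 6.12% of all tested genes. For each of the 3 the two-sided permutation test, which was exact, gave p = 0.1, the smallest p that 3 tumors against 3 allow. The median log2 fold change was 1.11 over the 4 luminal keratins and -0.09 over the 5 basal keratins, beside 0.02 over all tested genes (0.40, -1.03 and -0.86 when scaled by the epithelial genes described next). The samples are RNA from whole tumor pieces, in which fewer cells of a type and less RNA per cell cannot be told apart.

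Of 16 genes of tumor epithelium that are not keratins, 16 had a fitted log2 fold change above 0, as did 51.5% of all tested genes, with a median of 0.74 and the lowest, *Grhl2*, at 0.0010. Their summed level was 1790 to 2088 FPKM in test and 679 to 1827 FPKM in control tumors, and the groups overlapped through control replicate 2. None passed an adjusted p of 0.05 in the edgeR test. An unadjusted p under 0.05 was found for 3 of them, and for 3.15% of all tested genes as higher in test tumors. *Epcam*, the adhesion protein of simple epithelium, was at 397, 337 and 382 FPKM in test replicates 1, 2 and 3. In control replicates 1, 2 and 3 it was at 174, 401 and 141 FPKM, with control replicate 2 again at the level of the test tumors. *Cldn3*, a tight junction claudin, was at 435, 403 and 384 FPKM in test and 102, 350 and 190 FPKM in control replicates 1, 2 and 3, and *Spint2*, a protease inhibitor of epithelia, was at 438, 446 and 380 against 132, 350 and 230 FPKM in the same order. When the libraries were scaled to these 16 genes in place of TMM, the log2 fold change of the median gene was -0.86, and those of *Krt8*, *Krt18*, *Krt7* and *Krt19* were 0.48, 0.32, 0.27 and 0.89, with standard errors of 0.59, 0.60, 0.57 and 0.62. Only *Krt19* of the luminal keratins then differed from 0 by more than its standard error (edgeR adjusted p = 0.326).

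**Figure D2:**
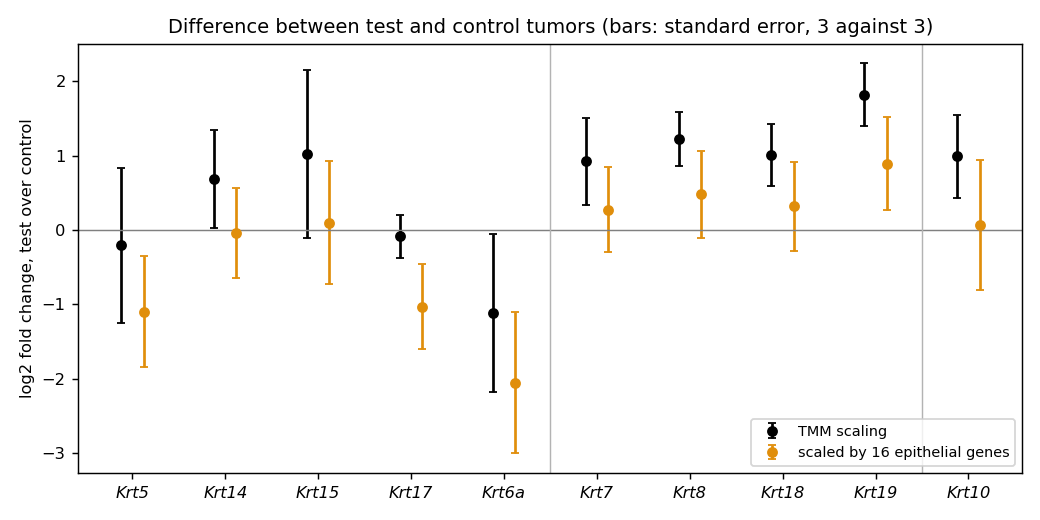
Log2 fold change of each keratin between test and control tumors (3 against 3), with standard errors, after TMM scaling (black) and after scaling by 16 epithelial genes (orange). The luminal members lie between 0.93 and 1.81 after TMM scaling and between 0.27 and 0.89 after epithelial scaling, where the median of all genes is -0.86.

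The basal keratins did not share a direction. *Krt14* and *Krt15* had higher and *Krt5*, *Krt17* and *Krt6a* lower fitted levels in test tumors, and the groups overlapped for all 5. *Krt5*, the type II keratin of basal cells, was at 73.9, 45.9 and 80.8 FPKM in test replicates 1, 2 and 3, a narrow range. In control replicates 1, 2 and 3 it was at 3.66, 37.05 and 198 FPKM, so that both the lowest and the highest of the 6 tumors were controls, 54.2-fold apart. Its level was 66.8 ± 18.5 FPKM in test and 79.6 ± 104 FPKM in control tumors (SD, n = 3 each). The log2 fold change of *Krt5* was -0.21 (SE 1.04, edgeR adjusted p = 0.966), and without control replicate 3 it turned to 1.75 (adjusted p = 0.987).

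*Krt14*, the type I partner of *Krt5* and the gene whose promoter drives the *Tslp* transgene, was at 27.05, 67.4 and 69.8 FPKM in test replicates 1, 2 and 3. The control replicates 1, 2 and 3 had 8.72, 35.5 and 62.3 FPKM, and control replicate 1 was the lowest tumor for *Krt14* as it was for *Krt5*. The log2 fold change was 0.68 (SE 0.65, edgeR adjusted p = 0.798). It was -0.043 after epithelial scaling (edgeR adjusted p = 0.96) and 1.35 without control replicate 3 (edgeR adjusted p = 0.987). Test replicates 2 and 3 were close to each other, with test replicate 3 the higher in FPKM and test replicate 2 the higher in CPM (119 against 117), and test replicate 3 was the test tumor with the fewest *Tslp* counts.

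*Krt17*, a keratin of myoepithelium, skin appendages and wounds, varied least of the 10 members. It was at 19.3, 26.3 and 29.95 FPKM in test replicates 1, 2 and 3 and at 30.4, 22.5 and 27.7 FPKM in control replicates 1, 2 and 3, a 1.58-fold range over the 6 tumors. Control replicate 1, the lowest tumor for *Krt5* and *Krt14*, was the highest for *Krt17*. Its log2 fold change was -0.09 (SE 0.29, edgeR adjusted p = 0.951). After epithelial scaling it was -1.03 (SE 0.57, edgeR adjusted p = 0.238), near the median gene of that scaling at -0.86.

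*Krt15* and *Krt6a* were low and were each set by a few tumors. *Krt15* was at 24.0 FPKM in test replicate 1 and at 2.03 and 2.84 FPKM in test replicates 2 and 3, against 0.63, 3.15 and 10.6 FPKM in control replicates 1, 2 and 3. Its log2 fold change of 1.02 (SE 1.13, edgeR adjusted p = 0.823) became -0.89 without test replicate 1. The expected counts of *Krt6a* were 70.1, 64.8 and 8.97 in control replicates 1, 2 and 3 against 1.62, 14.4 and 51.2 in test replicates 1, 2 and 3, with test replicate 1 under the floor of 3 counts. High and low tumors of *Krt6a* were found in both groups (log2 fold change -1.12, SE 1.06, edgeR adjusted p = 0.798). It was lower in test tumors without test replicate 3 by a log2 fold change of -2.45 (adjusted p = 0.655).

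*Krt10*, the type I keratin of suprabasal epidermis, was scarcely present. Its counts were 15, 25 and 48 in test replicates 1, 2 and 3 against 16, 13 and 16 in control replicates 1, 2 and 3, or 0.84, 1.37 and 2.39 against 0.81, 0.69 and 0.83 FPKM. Test replicate 3 was the highest tumor, and test replicate 1 lay within the range of the controls in CPM (log2 fold change 0.99, SE 0.56, edgeR adjusted p = 0.69). The log2 fold change of *Krt10* was 0.54 without test replicate 3 and 0.066 after epithelial scaling. *Krt1*, the type II partner of KRT10 in the epidermis, was at 3.08 FPKM in test replicate 3 and between 0 and 0.19 FPKM in each other tumor. Of 19 markers of differentiated epidermis, 4 were at 0 in test replicate 3 and between 8 and 12 in each other tumor, and their summed level was 41.1 FPKM in test replicate 3 against 6.81 to 19.2 FPKM in the others. *Krtdap*, a secreted protein of differentiating keratinocytes, stood at 66 counts in test replicate 3 and at 0 to 4 counts in the others. The other high genes of that list did not single out this tumor to the same degree. *Sbsn* was at 171, 89 and 108 counts in test and 36, 162 and 21 counts in control replicates 1, 2 and 3, and *Spink5* was at 71, 129 and 226 against 71, 74 and 172 counts. The part of skin in the *Krt10* level of test replicate 3 was not tested.

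The sums describe the layers side by side. The summed luminal level was 2236, 2353 and 2446 FPKM in test replicates 1, 2 and 3 and 848, 1637 and 673 FPKM in control replicates 1, 2 and 3, without overlap. The summed basal level was 144, 142 and 186 FPKM in test and 46.8, 101 and 299 FPKM in control replicates 1, 2 and 3, with the test tumors inside the range of the controls. Basal members made up 6.01%, 5.58% and 6.90% of all keratin FPKM in test replicates 1, 2 and 3. In control replicates 1, 2 and 3 they made up 5.09%, 5.55% and 30.1%, so that control replicate 3 alone had a basal share above those of the test tumors. On the log2 scale the basal to luminal ratio was -3.91 ± 0.17 in test and -3.12 ± 1.69 in control tumors (SD, n = 3 each), a difference of -0.79 that is smaller than the spread of the control tumors. Without control replicate 3 the difference was 0.19, in the opposite direction. With *Krt5* and *Krt18* left out of the sums, the log2 ratio was -4.06, -3.81 and -3.56 in test and -3.39, -3.49 and -1.74 in control replicates 1, 2 and 3. There the groups did not overlap (difference -0.94), with -3.56 and -3.49 the nearest values. The groups overlapped in the ratio over all members and under each other definition. Those were sums of counts scaled to library size, the mean of log2(FPKM + 0.1), and *Krt5* with *Krt14* over *Krt8* with *Krt18*.

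**Figure D3:**
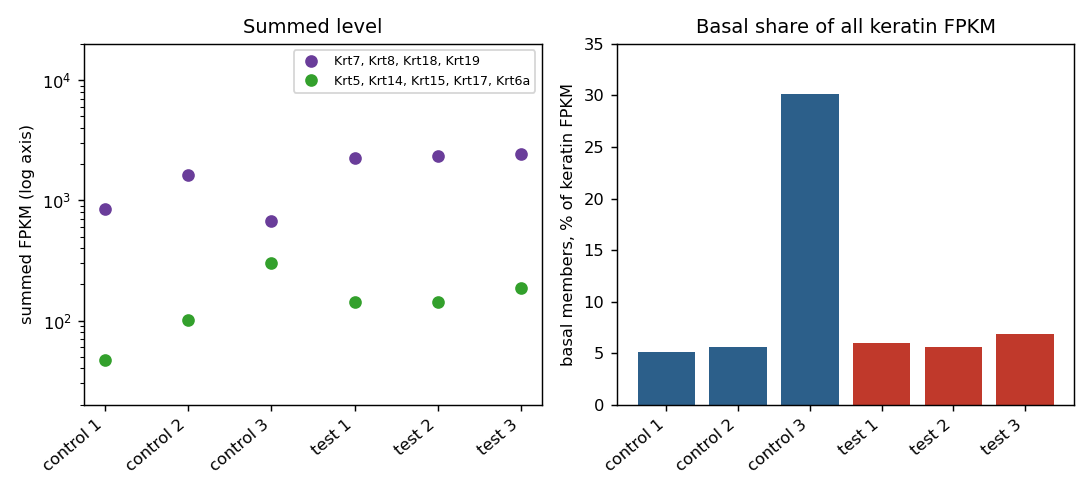
Left, summed FPKM of the 4 luminal and the 5 basal keratins in each tumor, on a log axis. Right, the basal members as a percentage of all keratin FPKM, with control tumors in blue and test tumors in red; control replicate 3 reaches 30.1%, and the other 5 tumors lie between 5.09% and 6.90%.

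Partner keratins were coupled to different degrees. The log2 ratio of *Krt8* to *Krt18* FPKM was -0.71, -0.62 and -0.60 in test and -0.74, -0.98 and -0.65 in control replicates 1, 2 and 3. *Krt18* thus exceeded *Krt8* in all 6 tumors, and the ratio ranged little although *Krt8* itself varied 3.73-fold. The log2 ratio of *Krt5* to *Krt14* was 1.45, -0.56 and 0.21 in test and -1.25, 0.06 and 1.67 in control replicates 1, 2 and 3. Neither partner of the basal pair was in excess in all tumors, and each group held ratios on both sides of 0. *Krt5* itself varied 54.2-fold. Pearson's r of log2(CPM + 0.5) over the 6 tumors was 0.837 for *Krt5* with *Krt14* and 0.985 for *Krt8* with *Krt18*. The type II keratins together were 0.52 to 0.82 times as abundant as the type I keratins in FPKM, with the groups overlapping.

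**Figure D4:**
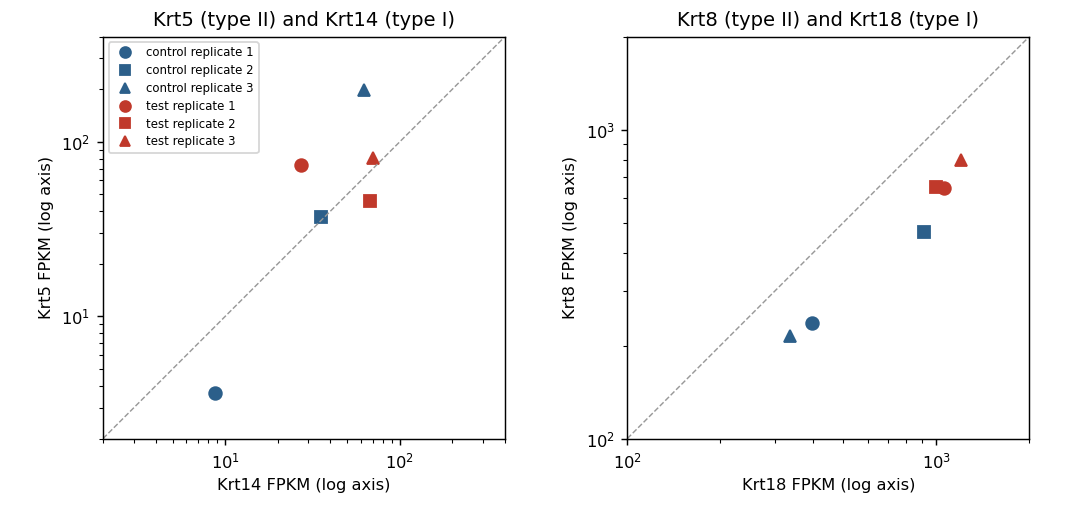
FPKM of the partner keratins in each tumor on log axes, *Krt5* against *Krt14* on the left and *Krt8* against *Krt18* on the right, with equal levels on the dashed line. The luminal pair runs parallel to the line in all 6 tumors, at log2 ratios between -0.98 and -0.60, and the basal pair scatters on both sides of it, between -1.25 and 1.67.

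In the test tumors the order of the mean levels was *Krt18*, *Krt8*, *Krt19*, *Krt7*, *Krt5*, *Krt14*, *Krt17*, *Krt15*, *Krt10* and *Krt6a*. The ranges of neighbors over the 3 tumors were separate from *Krt18* down to *Krt5*, and overlapped for each pair of neighbors from *Krt5* down to *Krt6a*. The control tumors had the same order except that *Krt6a* stood above *Krt10*. There the ranges of neighbors were separate only between *Krt8* and *Krt19* and between *Krt17* and *Krt15*. *Krt8* and *Krt18* held 64.6% to 74.4% of all keratin FPKM in the test tumors and 55.2% to 75.4% in the control tumors.

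Reads of the basal members can be shared with close copies. Of all stretches of 50 bases in the GENCODE coding transcripts, *Krt6a* shared 49.5% with other coding genes, most of them with *Krt6b* (43.6%), *Krt14* shared 14.4%, mainly with *Krt16* (11.4%), *Krt5* shared 8.52%, *Krt17* 3.99% and *Krt15* 0.666%. *Krt7*, *Krt8*, *Krt18*, *Krt19* and *Krt10* shared none. The split of the counts of *Krt6a* and *Krt14* is therefore uncertain. *Krt6a* summed with *Krt6b* differed by -0.96 on the log2 scale (SE 1.10), and *Krt14* summed with *Krt16* and *Krt17* had 0.41 (SE 0.41). These are the directions of *Krt6a* and *Krt14* alone, whereas *Krt17* alone had -0.09.

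The rest of the keratin family added little. Beside the 10 members, 44 keratin genes of the annotation were searched, of which 36 were listed in at least 1 tumor and 14 were at 3 counts or fewer in every tumor. The filter on low counts left 4 of them, 2 with a higher and 2 with a lower fitted level in test tumors, and none passed the adjusted p. The members held 95.1% to 99.1% of all keratin FPKM in each tumor. *Krt23*, a type I keratin of glandular epithelium, was at 16.2, 25.1 and 16.2 FPKM in test and 18.1, 53.7 and 12.8 FPKM in control replicates 1, 2 and 3 (log2 fold change -0.52, SE 0.53, edgeR adjusted p = 0.807). It was highest in control replicate 2, without which the log2 fold change was 0.29. *Krt79*, a type II keratin known from sebaceous ducts, was at 2.37, 20.5 and 30.6 FPKM in test and 1.33, 26.9 and 1.41 FPKM in control replicates 1, 2 and 3. High tumors of *Krt79* stood in both groups (log2 fold change 0.92, SE 1.25, edgeR adjusted p = 0.852). The log2 fold change of *Krt79* was 3.7 without control replicate 2 (edgeR adjusted p = 0.172) and 0.32 without test replicate 3. *Krt80*, a type II keratin of several epithelia, was at 1.01, 0.85 and 3.71 FPKM in test and 1.41, 2.60 and 1.62 FPKM in control replicates 1, 2 and 3, with a fitted log2 difference of 0.01 (SE 0.66, edgeR adjusted p = 0.998).

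Of 10 regulators and contractile genes of the basal layer, 10 had lower fitted levels in test tumors, as did 6648 of all 13706 tested genes. The median log2 fold change of the 10 was -0.95 (-1.95 after epithelial scaling). The groups overlapped in CPM for each of these 10 genes. None passed an adjusted p of 0.05 in the edgeR test with TMM scaling. An unadjusted p under 0.05 was found for 1, *Trp63* (adjusted p = 0.491), and for 5.26% of all tested genes as lower in test tumors. *Trp63*, the transcription factor known to drive *Krt5* and *Krt14* in basal cells, was at 99.3, 4.01 and 15.8 FPKM in control replicates 1, 2 and 3. In test replicates 1, 2 and 3 it was at 5.58, 1.61 and 4.48 FPKM. After epithelial scaling *Trp63* was among the 4.3% of all tested genes that passed the adjusted p as lower in test tumors, a scaling under which the median gene was also lower (-0.86). Control replicate 1 had the most *Trp63* and the least *Krt5* and *Krt14* of the 6 tumors. The smooth muscle genes *Acta2*, *Myh11* and *Cnn1*, which myoepithelial cells use to contract, were highest in control replicate 3, at 682, 71.4 and 98.3 FPKM, the tumor with the most *Krt5*. *Myl9*, a myosin light chain of smooth muscle, was at 113, 81.0 and 29.4 FPKM in test and 107, 47.6 and 309 FPKM in control replicates 1, 2 and 3, also highest in control replicate 3. *Acta2*, *Myh11* and *Cnn1* were lowest or next to lowest in test replicate 3, at 51.5, 1.13 and 2.50 FPKM, where *Krt5* was at 80.8 FPKM. Smooth muscle of vessels holds these genes too, and its part was not tested.

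**Figure D5:**
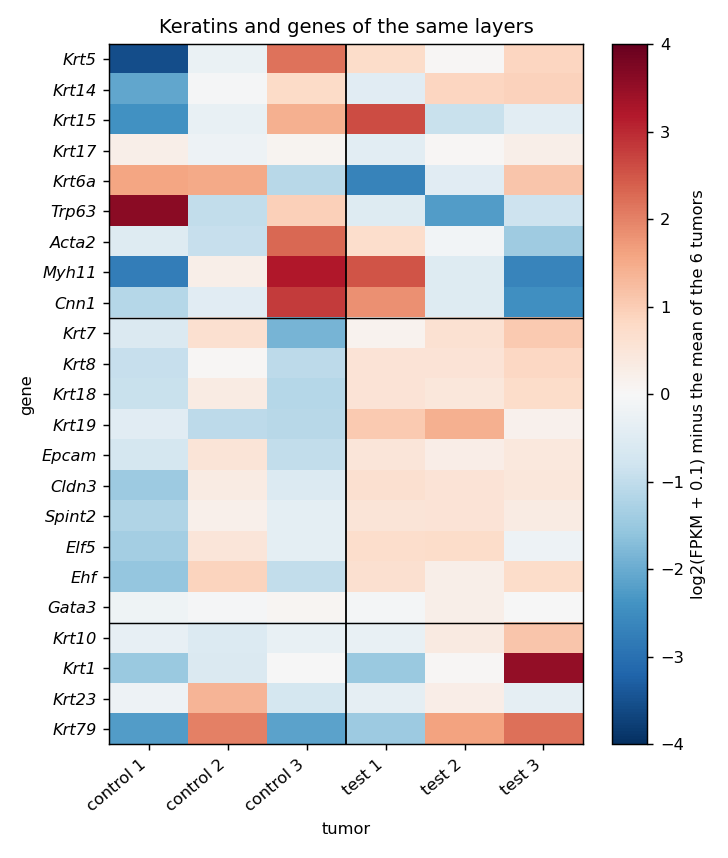
Heat map of log2(FPKM + 0.1) minus the mean of the 6 tumors for the keratins and for genes of the basal layer (top), of the luminal layer and epithelium (middle) and for *Krt10*, *Krt1*, *Krt23* and *Krt79* (bottom). Control replicate 1 is lowest for *Krt5* (3.66 FPKM) and highest for *Trp63* (99.3 FPKM), and control replicate 3 is highest for *Krt5*, *Acta2*, *Myh11* and *Cnn1*.

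Of 10 transcription factors and receptors of the luminal layer, 7 (against 51.5% of all tested genes) had higher and 3 had lower fitted levels in test tumors. Their median log2 fold change was 0.46 (-0.41 after epithelial scaling). None passed the adjusted p in the edgeR test, and none had an unadjusted p under 0.05. *Elf5*, the factor of milk-secreting alveolar cells, was at 279.5, 282.5 and 150.3 FPKM in test and 67.3, 242 and 131 FPKM in control replicates 1, 2 and 3. *Ehf*, an epithelial factor of the same ETS family, was at 193, 145 and 206 FPKM in test and 42.1, 228 and 61.6 FPKM in control replicates 1, 2 and 3. *Gata3*, the luminal master factor, differed little, at 73.2, 90.7 and 76.3 against 67.8, 74.2 and 81.8 FPKM. The paper also reports GATA3-positive CD4+ T cells in test tumors, and the part of T cells in the *Gata3* level was not tested. The levels of *Elf5* and *Ehf* in control replicate 2 were within or above the range of the test tumors, as its *Krt7* level was. Hormone receptor genes were low, with *Esr1* between 0.16 and 2.30 FPKM and *Pgr* between 0.05 and 1.25 FPKM.

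A list of 15 genes held proteins that link or organize keratin filaments, among them parts of desmosomes and hemidesmosomes. Of these genes, 11 (against 51.5% of all tested genes) had higher and 4 had lower fitted levels in test tumors. Their median log2 fold change was 0.42 (-0.41 after epithelial scaling). None passed the adjusted p in the edgeR test with TMM scaling. The unadjusted p was under 0.05 for 2 higher and 1 lower gene, beside 3.15% higher and 5.26% lower of all tested genes. The integrin chains of the hemidesmosome, which form a pair, had fitted differences in opposite directions. *Itga6* was at 53.2, 22.3 and 53.1 FPKM in test and 102, 83.2 and 87.6 FPKM in control replicates 1, 2 and 3, every test tumor below every control tumor (log2 fold change -1.10, SE 0.36, edgeR adjusted p = 0.475). *Itgb4* was at 60.5, 19.5 and 192 FPKM in test and 11.5, 36.9 and 18.46 FPKM in control replicates 1, 2 and 3 (log2 fold change 2.05, SE 0.79, edgeR adjusted p = 0.545). After epithelial scaling *Itga6* was also among the 4.3% of genes that passed the adjusted p as lower. The highest tumor for *Itgb4* was test replicate 3, and test replicate 2 was within the range of the controls. Every test tumor was below every control tumor for 5.86% of all tested genes. *Jup*, plakoglobin of the desmosome, was at 128, 53.4 and 117 FPKM in test and 56.7, 92.0 and 76.3 FPKM in control replicates 1, 2 and 3.

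The genes most like a keratin over the 6 tumors were named by Pearson's r of log2(CPM + 0.5) over genes that are not members. For *Krt14* they were *A430005L14Rik* (r = 0.994), *Lamtor3* (0.991) and *Col15a1* (0.983), for *Krt8* they were *Zwint* (0.991), *Nmnat3* (0.987) and *Aptx* (0.985), and for *Krt6a* they were *Smco3* (0.984), *Smtnl2* (0.975) and *Agpat1* (0.97). An r above 0.95 was reached by 10 genes for *Krt14*, 39 for *Krt8* and 9 for *Krt6a* among the 13706 tested genes, members left out. These are correlations over 6 tumors of 2 groups, and the named genes are the highest of that many. How many genes would pass 0.95 by chance was not tested, so the named genes are not shown to be partners of a keratin.

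Other cell types in the tumor pieces differed between tumors. Summed levels in test and control tumors were 63.6 to 472.5 and 3.28 to 106 FPKM for 10 skeletal muscle markers, and 24.1 to 479 and 22.0 to 37.05 FPKM for 6 adipocyte markers, both highest in test replicate 1. Fibroblast markers (10 genes) summed to 392.4 to 1097 FPKM in test and 253 to 679 FPKM in control tumors, leukocyte markers (10 genes) to 96.0 to 271.5 and 152 to 268 FPKM, and endothelial markers (8 genes) to 45.8 to 58.7 and 37.2 to 50.9 FPKM. Hair follicle markers (14 genes) summed to 4.29 to 4.76 FPKM in test and 0.82 to 9.34 FPKM in control tumors, with between 4 and 11 of them at 0 in a tumor. The groups overlapped for each of these sums. All 10 skeletal muscle markers and the 3 adipocyte markers that passed the filter had higher fitted levels in test tumors, as did 51.5% of all tested genes. Their median log2 fold changes were 2.75 and 4.31. The unadjusted edgeR p was under 0.05 for 2 and 3 of them, and for 3.15% of all tested genes as higher in test tumors. None passed an adjusted p of 0.05 in the edgeR test with TMM scaling. The part of the other cell types in the keratin levels was not tested.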

How the data were processed

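RNA was extracted from 3 test and 3 control breast tumors, and sequenced at BGI. Per the labels and the paper's methods, the authors aligned reads to mm10 with Bowtie; the submitters' processing notes also name BWA and RSEM. For each tumor they deposited an expected count (an estimate of reads per gene, not normalized) and an FPKM, which the authors normalized to gene length and depth. The deposited length in bases is the other column, used here only as background. Genes without reads are not listed and were set to 0. Of 18460 NCBI Gene identifiers, 18400 matched a RefSeq annotation of GRCm38. Total expected counts were 8373390 to 9449565 per tumor; the floor of 3 counts covers counting error only.

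The rounded expected counts were tested with edgeR 4.0.16 under R 4.3.3 (filterByExpr, TMM, quasi-likelihood test, no covariates, Benjamini-Hochberg adjustment over all 13706 tested genes). The biological coefficient of variation common to all genes was 0.434. The standard error is the log2 fold change divided by the square root of F. P-values measure the spread between 3 mice a group. The ratio of basal to luminal keratins was not tested. Alternatives were RLE, scaling by 16 epithelial genes, DESeq2 1.42.0, no filter, at least 10 counts in every tumor, limma 3.58.1 with a pseudocount of 1 or 0.1 on the log2 FPKM of genes whose mean FPKM was 1 or more, a block for the replicate number, and leaving out each tumor. Scripts were tested on simulated data. The members and lists were chosen with earlier results of these data known. Named are all members, other keratins at a mean FPKM of at least 1 in a group, the 3 highest genes of each context list (those of other cell types only as sums) and the genes most like *Krt14*, *Krt8* and *Krt6a*; *Trp63*, *Myh11*, *Grhl2*, *Esr1*, *Pgr*, *Tslp* and the motifs were added after their values were seen. Epithelial scaling of the context lists, counts of unadjusted p and the ratio of *Krt5* with *Krt14* to *Krt8* with *Krt18* were added after the data were seen.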

Additional observations from a re-analysis of the deposited data

How the results depend on the processing

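Of all tested genes, 0 passed an adjusted p of 0.05 with edgeR, at 1153 genes with an unadjusted p under 0.05, and the alternatives gave 343 with DESeq2, 610 after epithelial scaling (21 higher and 589 lower in test tumors), 1 with limma on log2(FPKM + 1) and 0 to 182 when each tumor was left out, the highest without control replicate 2. Among the 10 members the count was 0, and it was 1 (*Krt19*) with DESeq2 and 0 without any tumor. Among the context lists it was 0, and it was 5 (*Adipoq*, *Cfd*, *Itga6*, *Oxtr* and *Trp63*) after epithelial scaling, an alternative chosen after seeing the data, and 0 to 1 when each tumor was left out. Unadjusted counts ranged from 654 without control replicate 1 and 701 without control replicate 3 to 2020 without control replicate 2 and 3417 after epithelial scaling. The basal to luminal difference ranged from -1.32 to 0.19 when each tumor was left out, and from -1.05 to -0.23 over the other definitions.

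*Krt8*, *Krt18*, *Krt19* and *Krt7* were higher in test tumors under all 15 alternatives (lowest log2 fold changes 0.48, 0.32, 0.89 and 0.27, each after epithelial scaling), and the lowest adjusted p of *Krt8* was 0.0592. The direction turned for *Krt5* with limma (1.01 and 1.10), with the replicate block (0.92) and without control replicate 3 (range -0.77 to 1.75 over the tumors left out), for *Krt14* after epithelial scaling (-0.043), for *Krt15* without test replicate 1 (-0.89 to 2.33), for *Krt17* without control replicate 1 or test replicate 1 (-0.22 to 0.10) and for *Krt23* without control replicate 2 (-0.88 to 0.29). *Krt80* turned after epithelial scaling (-0.82) and without control replicate 1, control replicate 3 or test replicate 3 (-0.97 to 0.34). The cause was not tested. With the replicate number as a block, 0 genes passed. The same-numbered tumors are different mice, and their deviations from the group means correlated across genes at -0.03, 0.10 and -0.14. Test and control tumors with different numbers correlated at -0.14 to 0.19. With 3 tumors a group these values cannot show whether the numbers mark a shared batch, which was not tested. At this depth *Krt6a*, *Krt10* and *Krt15* rest on few counts in some tumors.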
